A study of Mus musculus with 4 samples.

Results

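*Pecam1*, *Icam2*, *Mcam*, *Cd99l2* and *Cd47* encode endothelial surface receptors, other than selectins, through which leukocytes cross the vessel wall. These 5 genes were listed by name and followed among 46517 gene identifiers in Smart-seq2 data of the mouse ear dermis, a plate-based method that places a single sorted cell in each well. The cells were CD31+, CD45- and Lyve1- by flow cytometry and came from female C57Bl/6 mice of 12 to 26 weeks, with 6 mice to a pool by the labels and no treatment. The methods of the study name the substrain J and a younger age range. Sorting filled 4 plates with 384 wells each, and each of the 2 replicates consists of a plate A and a plate B. There was a single experimental group, so the comparisons are between kinds of wells within it. The labels do not say whether the replicates are separate pools, and p-values therefore measure only the spread between these 2 replicates, which may be technical.

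Leukocyte transmigration begins with capture by selectins and firm arrest on endothelial integrin ligands. The arrested cell then passes between or through endothelial cells, and a set of receptors at the lateral border takes part in that last step. CD31, the product of *Pecam1*, binds itself on the neighbouring cell and on the leukocyte, and ICAM-2 is a ligand of leukocyte integrins that is present at endothelial junctions. CD146, the product of *Mcam*, is an adhesion molecule of endothelial and mural cells that binds a laminin of the vascular basement membrane. CD99L2 is a relative of CD99 that acts late in the passage, and CD47 is a widely expressed receptor of thrombospondin and the ligand of SIRPα on myeloid cells.

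Blood vascular endothelial cell (BEC) wells had 500 to 8000 genes with a read, at least 600 counts, reads from 2 or more of the endothelial trio *Cdh5*, *Kdr* and *Pecam1*, and less than 100 CPM (counts scaled to a common total per well) of *Ptprc*, *Pdgfrb*, *Kcnj8*, *Prox1* and *Lyve1* alike. This left 338 BEC wells in replicate 1 and 363 in replicate 2. Lymphatic wells, with at least 100 CPM of *Prox1* or *Lyve1* and less of the leukocyte and mural genes named, numbered 13 and 182, and mural wells, with at least 300 CPM of *Pdgfrb* or *Kcnj8* and below 100 CPM of *Cdh5*, *Kdr* and the lymphatic and leukocyte genes, numbered 43 and 45. *Pecam1* helped to choose BEC wells and its protein was the positive gate of the sort, so its presence in BEC wells is no result. The other receptors were not used to choose any well.

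All 8 pan-endothelial markers reached 10 CPM in BEC wells of both replicates. Wells of the 2 replicates differed in depth, with a median of 142614 reads in BEC wells of replicate 1 and 92974 in replicate 2. Markers of other cell types also had reads in BEC wells, and the source of these reads was not tested. The 11 mural markers summed to 1370 CPM in BEC wells of replicate 1 and 577 CPM in replicate 2, and the 7 lymphatic markers to 66.1 and 969 CPM. The 7 leukocyte markers summed to 5.18 and 124 CPM, and *Ptprc*, which encodes CD45, stood at 0.142 and 0.311 CPM. In mural wells the 8 pan-endothelial markers summed to 3744 CPM in replicate 1 and 486 CPM in replicate 2, so the mural wells of replicate 1 carried more endothelial RNA. The 6 fibroblast markers summed to 2761 and 3490 CPM in mural wells of the replicates and to 429 and 650 CPM in BEC wells.

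The genes lie on 4 chromosomes of mm10. *Pecam1* (ENSMUSG00000020717, chr11:106654217-106750628, minus strand) and *Icam2* (ENSMUSG00000001029, chr11:106377656-106388075, minus strand) are both on chromosome 11, with 266141 bases between them. *Mcam* (ENSMUSG00000032135) spans chr9:44134469-44142727 on the plus strand. *Cd99l2* (ENSMUSG00000035776) spans chrX:71420060-71492849 on the minus strand and *Cd47* (ENSMUSG00000055447) chr16:49800533-49915010 on the plus strand. The reads carry no strand, and 17 exon bases of *Mcam* are shared with its antisense gene *Gm10687* and 34 of *Cd99l2* with *Gm16189*, where reads of the partners cannot be told apart. These partners were low, with *Gm10687* at 2.21 and 4.95 CPM and *Gm16189* at 0.0273 and 0 CPM in BEC wells of the 2 replicates.

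RefSeq promoter windows were found for 3 of the 5 genes, *Mcam*, *Cd47* and *Cd99l2*. *Cd47*, the most widely detected of these 3 in replicate 2, and *Cd99l2*, the least abundant, are shown as the bases before the transcription start in GRCm38.p6, 5′ to 3′ on the strand of the gene and ending before the next annotated exon base of the gene. Capitals mark GGGCGG on either strand, the GC box to which Sp factors bind. The *Cd47* stretch is chr16:49855404-49855632 (plus strand), before the first of 2 RefSeq starts and within the span of the longer GENCODE gene model, and the *Cd99l2* stretch is chrX:71492850-71493099 (minus strand).
Cd47: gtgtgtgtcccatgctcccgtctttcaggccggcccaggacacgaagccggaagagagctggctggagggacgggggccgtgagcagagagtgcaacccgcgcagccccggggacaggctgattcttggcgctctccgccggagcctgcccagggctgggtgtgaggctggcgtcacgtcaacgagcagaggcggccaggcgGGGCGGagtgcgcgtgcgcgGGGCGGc
Cd99l2: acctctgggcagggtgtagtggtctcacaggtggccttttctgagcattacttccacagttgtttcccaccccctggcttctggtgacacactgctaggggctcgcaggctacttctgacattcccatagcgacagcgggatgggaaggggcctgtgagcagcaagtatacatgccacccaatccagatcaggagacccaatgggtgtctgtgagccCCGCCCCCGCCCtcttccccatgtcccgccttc

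In the 250 bases before the start, the *Mcam* window held 5 GC boxes, the *Cd47* window 2 and the *Cd99l2* window 2. The RefSeq start of *Mcam* lies downstream of the GENCODE one, so that only 61 bases of its window precede the first annotated exon base, and these hold 0 GC boxes. GGGCGG occurred on either strand in 32.7% of 32851 RefSeq windows of that length. The GC content was 73.6% for *Mcam*, 73.2% for *Cd47* and 59.2% for *Cd99l2*, beside a median of 52.4% over all windows, and CG pairs numbered 25, 30 and 6. TGACGTCA, the palindromic cAMP response element, occurred once in the *Mcam* window and in 1.55% of all windows, and neither of the other windows held it. TATAAA was in none of the 3 windows and in 12.4% of all. GGAA, the core of ETS sites, was found once each in the *Mcam* and *Cd47* windows and 5 times in the *Cd99l2* window, and in 93.4% of all windows. These matches describe the letters only.

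*Pecam1* was the most abundant of the 5 receptors in BEC wells and *Cd99l2* the least. Mean CPM per well of *Pecam1* was 3021 in replicate 1 and 1916 in replicate 2, or 2469 ± 782 (SD, n = 2). On plates A and B it was 3270 and 2809 in replicate 1 and 1931 and 1902 in replicate 2. Both plates of replicate 1 lay above both plates of replicate 2. The gap was smaller after scaling by scran size factors, with 3093 and 2903. *Icam2* stood at 354 and 217 CPM (286 ± 96.6) and *Mcam* at 505 and 287 CPM (396 ± 154), again with replicate 1 the higher on each plate. *Cd47* was at 514 and 503 CPM (508 ± 7.13), but at 523 and 738 after scran scaling (631 ± 152), and in the TMM-scaled sums at 537 and 554, so that its evenness between replicates depends on the scaling, and *Cd99l2* stood at 35.2 and 32.3 CPM (33.8 ± 2.07). The small SD of *Cd99l2* hides its plates, which ran from 17.96 CPM on plate A to 45.8 CPM on plate B of replicate 2, whereas those of *Cd47* ran from 470 to 565 CPM.

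Genes can be ranked against each other only per length, since longer transcripts yield more reads. Per kb of exon, *Pecam1* reached 485 and 308 CPM in the 2 replicates, *Icam2* 186 and 114, *Mcam* 151 and 85.8, *Cd47* 81.8 and 80.2, and *Cd99l2* 7.19 and 6.59. By CPM the order was the same in both replicates. After scran scaling *Mcam* stood at 438 ± 115 and *Cd47* at 631 ± 152 CPM before division by length, so their order can depend on the scaling. Means were 150 ± 50.7 CPM per kb for *Icam2*, 118 ± 46.0 for *Mcam* and 81.0 ± 1.14 for *Cd47* (SD, n = 2). *Icam2* and *Mcam* were both higher in replicate 1, so these SDs hold a shared shift and do not measure the gap between genes. The gaps were not tested. *Pecam1*, at 396 ± 125, lay above all others in each replicate, and *Cd99l2* far below them. Among 14891 protein-coding genes with a read in BEC wells of both replicates, *Pecam1* ranked 74th and 72nd per length, *Icam2* 249th and 272nd, *Mcam* 314th and 394th, *Cd47* 643rd and 434th and *Cd99l2* 5519th in each.

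**Figure D1:**
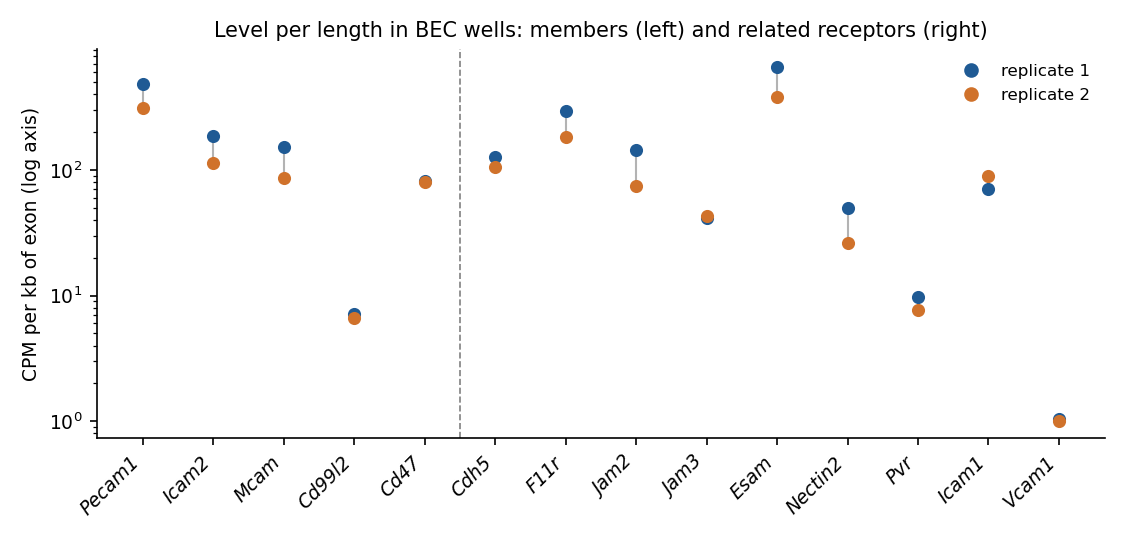
Mean CPM per well and per kb of exon (log axis) in BEC wells of replicate 1 (blue) and replicate 2 (orange), for the 5 receptors left of the dashed line and for listed lateral border and docking receptors right of it, without *Icam4* and *Icam5*, which were below 0.1 in a replicate. *Pecam1* lies at 485 and 308, between *Esam* (658 and 378) and *F11r* (296 and 184), and *Cd99l2* near *Pvr* (9.78 and 7.71).

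The other receptors of the same route set the scale. Of 8 listed lateral border receptors, 7 were measured, and their means ran from 8.75 CPM per kb for *Pvr*, which encodes the poliovirus receptor, to 518 for *Esam*, a junctional adhesion molecule of endothelium and platelets. *Cdh5*, which encodes VE-cadherin, lay at 116, and the junctional adhesion molecules *F11r*, *Jam2* and *Jam3* at 240, 108 and 41.9. *Mcam*, at 118, was thus near *Cdh5* and *Jam2*, whereas *Icam2* lay above both in each replicate. Among docking receptors *Icam1* reached 79.7, whereas *Vcam1* stood at 1.02, *Icam4* at 0.585 and *Icam5* at 0.00329. The last 2 means each come from a single replicate, with *Icam4* at 1.17 and 0 and *Icam5* at 0 and 0.00658. The 3 tetraspanins that organise such receptors in the membrane, *Cd9*, *Cd81* and *Cd151*, had means of 407, 369 and 180 CPM per kb. *Cd81* was above *Cd9* in replicate 1 (519 and 424) and below it in replicate 2 (219 and 390).

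Of the intracellular partners, *Msn* (moesin, 134 CPM per kb) was the most abundant of the 3 ERM genes that tie receptors to actin, with *Rdx* (radixin) at 28.3 and *Ezr* (ezrin) at 2.71. *Rac1* and *Rhoa*, small GTPases of the actin response, reached 155 and 73.4, and *Cav1*, the coat protein of caveolae, 962. Among listed ligands of the receptors, *Thbs1* and *Sirpa*, which encode partners of CD47, had means of 3.68 and 3.67 CPM per kb. In replicates 1 and 2 *Thbs1* was at 5.94 and 1.43 and *Sirpa* at 2.67 and 4.67. *Itgal* and *Itgb2*, the leukocyte integrin chains that bind ICAM-2, had means of 0.648 and 0.0947. These rest on replicate 2, with *Itgal* at 0.00146 and 1.29 and *Itgb2* at 0 and 0.189. *Lama4* and *Lama5*, laminin chains of the vascular basement membrane, reached 17.96 and 22.46. The sheddases *Adam10* and *Adam17* lay at 37.3 and 10.6.

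Shares of wells with a read differed between receptors and between replicates. A read of *Pecam1* was found in 338 of 338 and 363 of 363 BEC wells, partly by the rule that chose them. *Cd47* had a read in 98.5% (exact 95% interval 96.6 to 99.5) of BEC wells of replicate 1 and 74.1% (69.3 to 78.5) of replicate 2. *Mcam* had one in 97.9% (95.8 to 99.2) and 51.8% (46.5 to 57.0), and *Icam2* in 92.3% (88.9 to 94.9) and 47.1% (41.9 to 52.4). *Cd99l2* was found in 29.0% (24.2 to 34.1) and 12.4% (9.19 to 16.2). Each of these 4 was detected more often in replicate 1, and the intervals, which cover counting error only, did not overlap.

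Thinning each well to 20000 reads narrowed the gap between replicates without closing it. It left out 1 BEC well of replicate 1 and 69 of replicate 2. It also left out 4 mural wells and 89 of 182 lymphatic wells of replicate 2, where lymphatic wells had a median of 20394 reads. *Cd47* was then found in 82.2% and 65.3% of BEC wells, *Mcam* in 78.9% and 43.5%, *Icam2* in 71.2% and 41.2%, and *Cd99l2* in 13.6% and 8.16%. All 5 receptors had a read in 26 of 337 thinned BEC wells of replicate 1 and 5 of 294 of replicate 2, and the most frequent number was 4 of 5 in replicate 1 (151 wells) and 3 of 5 in replicate 2 (103 wells). No receptor was read in 1 and 2 wells.

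Within BEC wells the receptors were unevenly spread. In wells with a read, the median of *Icam2* was 288 CPM in replicate 1 and 252 in replicate 2, so that its levels in such wells were closer than its shares. The same median was 336 and 163 CPM for *Mcam* and 432 and 266 CPM for *Cd47*. Reads of *Cd99l2* were concentrated in few cells. The 10 wells with most *Cd99l2* reads held 58.8% of all its reads in replicate 1 and 92.7% in replicate 2, compared with 9.41% and 14.9% for *Pecam1*, and 54 of 98 and 28 of 45 wells with *Cd99l2* had only 1 to 3 reads. Mean levels of *Cd99l2* thus rest on few wells.

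**Figure D2:**
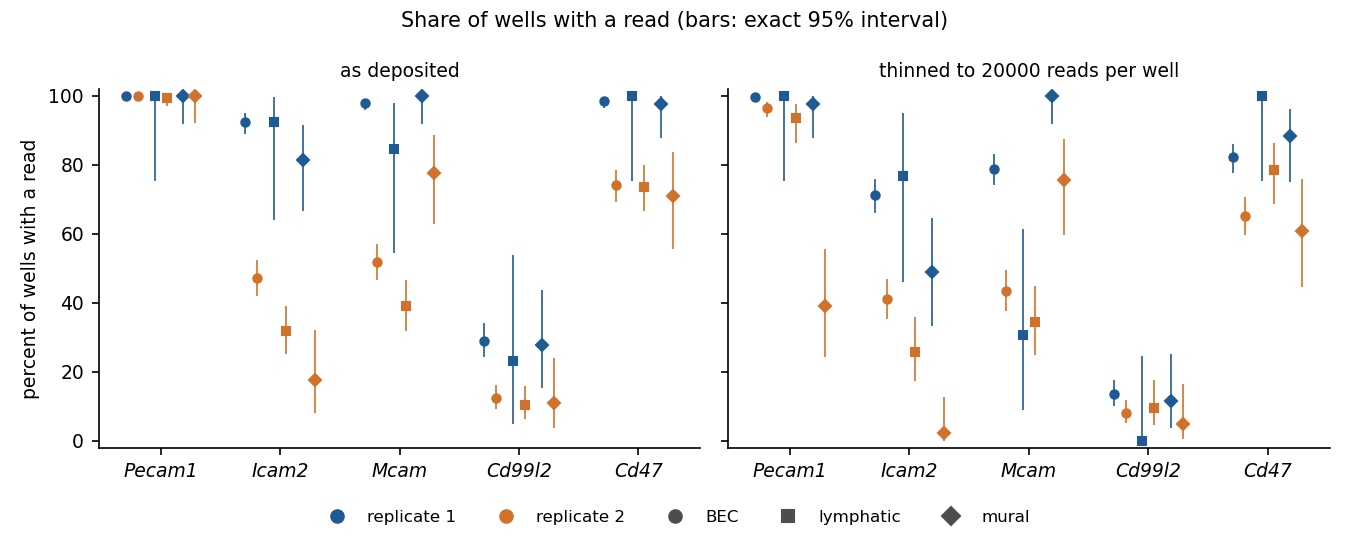
Percent of BEC (circles), lymphatic (squares) and mural (diamonds) wells with at least 1 read of each receptor in replicates 1 (blue) and 2 (orange), as deposited (left) and after thinning to 20000 reads per well (right), with exact 95% intervals. *Cd99l2* is lowest in BEC wells of both panels (29.0% and 12.4%, then 13.6% and 8.16%), and *Icam2* in mural wells of replicate 2 falls to 2.44% after thinning.

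Compared with lymphatic and mural wells, *Mcam* was lowest in lymphatic and highest in mural wells, *Icam2* was lowest in mural wells, and *Cd47* ranged from 293 to 685 CPM over all kinds of wells and both replicates. Sums of counts per replicate and kind of well entered edgeR's quasi-likelihood fit, in which the replicate was a block, with p-values adjusted over all genes tested by Benjamini-Hochberg. Of the 5 receptors, 0 passed the threshold of 0.05 against lymphatic wells, where 0.225% of 17753 genes tested did (18 higher and 22 lower in BECs). Likewise 0 passed against mural wells, where 0.27% did (5 higher and 43 lower). At an unadjusted p below 0.05 the test gave 1579 and 1620 genes, among them 1 and 3 of the 5 receptors, and DESeq2's test called 798 and 770 genes but none of the 5. The median log2 fold change over all genes tested was 0.39 and 0.23 in the 2 comparisons, the level to which the values that follow are to be set.

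*Mcam* stood at 505 and 287 CPM in BEC wells of replicates 1 and 2, at 101 and 73.9 CPM in lymphatic wells and at 967 and 829 CPM in mural wells. Its order was therefore mural, BEC and lymphatic in both replicates, without overlap of any plate between BEC and mural wells. Here and below, plates of a replicate are not separate samples, and the share of all genes without such overlap was not counted. The log2 fold change of BECs over lymphatic wells was 2.07 ± 0.45 (SE, adjusted p = 0.137), with 1.89 and 2.29 in the single replicates. That over mural wells was -1.16 ± 0.43 (adjusted p = 0.514), with -0.86 and -1.41. Thinned to 20000 reads, a read of *Mcam* was found in 43 of 43 mural wells of replicate 1 and 31 of 41 of replicate 2. This compares with 78.9% and 43.5% of BEC wells. Of the lymphatic wells deep enough to be thinned it was 4 of 13 (30.8%) and 32 of 93 (34.4%). BEC wells carried *Rgs5*, a pericyte gene, at 853 and 186 CPM beside 4646 and 5734 CPM in mural wells. Among BEC wells below 100 CPM of *Rgs5*, *Mcam* stood at 551 and 324 CPM. The part of mural RNA in the *Mcam* level of BEC wells was not tested otherwise.

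*Icam2* stood at 354 and 217 CPM in BEC wells, 344 and 63.7 CPM in lymphatic wells and 161 and 11.1 CPM in mural wells. Lymphatic wells of replicate 1, of which there were 13, were as high as BEC wells, whereas those of replicate 2 were lower. Against lymphatic wells its log2 fold change was 0.82 ± 0.80 (adjusted p = 0.815), with opposite signs in the replicates (-0.14 and 1.31). Against mural wells it was 2.81 ± 0.91 (adjusted p = 0.493), at 1.02 in replicate 1 and 4.86 in replicate 2. After thinning, 1 of 41 mural wells of replicate 2 had a read of *Icam2*, compared with 48.8% in replicate 1, where the mural wells carried more pan-endothelial RNA. The part of that RNA in the difference between replicates was not tested.

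*Pecam1* stood at 3021 and 1916 CPM in BEC wells, with 941 and 1166 CPM in lymphatic wells and 1736 and 273 CPM in mural wells. All 4 plates of BECs were above every plate of lymphatic wells. Its log2 fold change was 1.27 ± 0.66 (adjusted p = 0.577) against lymphatic wells, at 1.92 and 0.94 in the replicates, and 1.86 ± 0.70 (adjusted p = 0.514) against mural wells, at 0.89 and 3.53. A read of *Pecam1* was found in 43 of 43 and 45 of 45 mural wells as deposited, but after thinning in 16 of 41 of replicate 2, so that a single read of it does not separate the kinds of wells. Cells were sorted for CD31 protein, and lymphatic cells with surface LYVE1 were gated out by protein. Lymphatic wells held *Lyve1* RNA at 881 and 1889 CPM, partly by the rule that chose them.

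*Cd47* was the only receptor of the 5 that was lower in BECs than in lymphatic wells in each replicate, although the difference did not pass the test. It stood at 685 and 565 CPM in lymphatic wells and 447 and 293 CPM in mural wells, next to 514 and 503 CPM in BECs. The log2 fold changes were -0.62 ± 0.41 (adjusted p = 0.673) and 0.59 ± 0.41 (adjusted p = 0.822). *Cd99l2*, at 4.95 and 15.3 CPM in lymphatic and 23.4 and 21.6 CPM in mural wells, gave 1.32 ± 1.23 (adjusted p = 0.803) and 0.86 ± 1.19 (adjusted p = 0.9997), with standard errors close to or above the values. Against lymphatic wells the value was 0.11 on plate A and 2.84 on plate B, and against mural wells chosen by low *Pecam1* it was 6.30 ± 2.61 (adjusted p = 0.27). A read of it was found in 3 of 13 lymphatic wells of replicate 1 as deposited and in 0 of 13 after thinning, where a count of 0 leaves up to 23.1% (3 wells of the total) with a read at that depth.

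**Figure D3:**
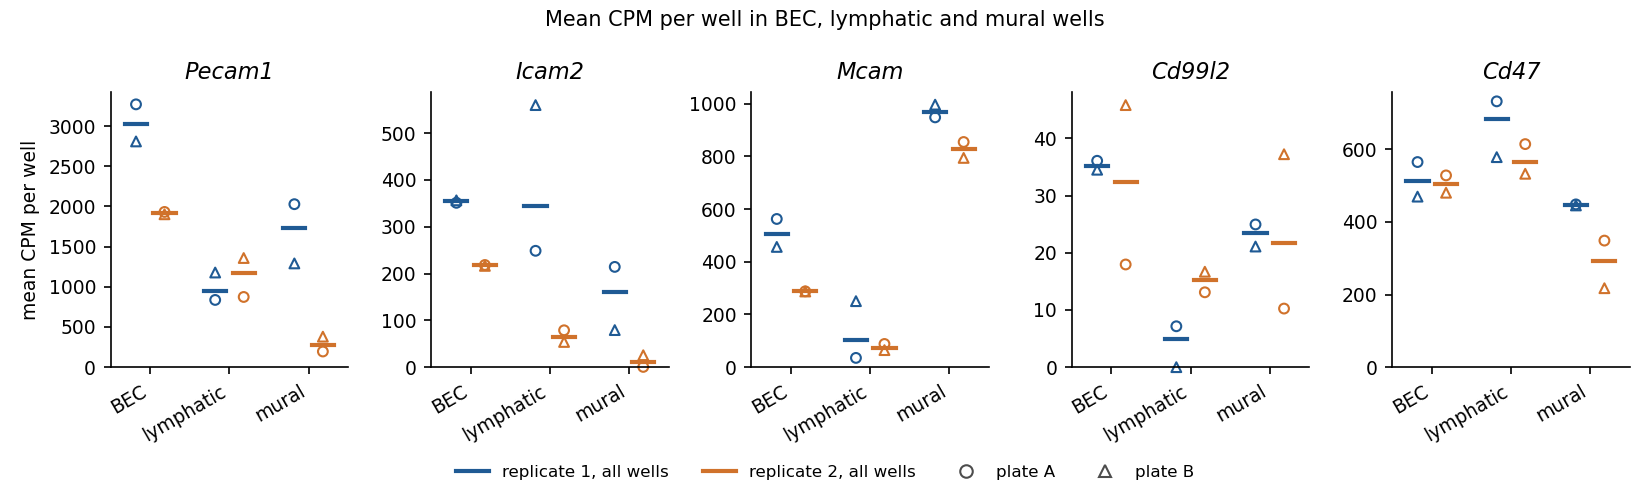
Mean CPM per well of each receptor in BEC, lymphatic and mural wells, with a line for each replicate (blue 1, orange 2) and open symbols for plates A (circles) and B (triangles); each panel has its own linear axis from 0. *Mcam* rises from lymphatic (101 and 73.9) over BEC (505 and 287) to mural wells (967 and 829), and *Icam2* and *Pecam1* in mural wells differ widely between replicates.

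Of the list of 45 related genes, 41 were tested in these comparisons. *Esam* alone passed against lymphatic wells, higher in BECs by a log2 fold change of 2.66 ± 0.37 (adjusted p = 0.0297) and by 2.45 and 2.89 in the replicates. It stood at 1888 and 1083 CPM in BEC wells and 324 and 154 CPM in lymphatic wells. The call was lost without the replicate block (adjusted p = 0.16), with limma on mean CPM (0.366), on plate A alone (0.205), with the non-BEC genes below 10 CPM (0.0511), among BEC wells below 100 CPM of *Rgs5* (0.0833) and in the named classes alone (0.0741), while the fold change stayed between 2.36 and 3.92 in every alternative. Against mural wells 0 of 41 passed, and 24 of the 41 had a positive fold change. These included all 7 lateral border receptors tested (median 1.94), but 0 of 3 tetraspanins, 3 of 8 ERM proteins and actin adaptors and 5 of 12 signalling genes. Low *Cdh5*, which is a lateral border receptor, and low *Kdr* were used to choose mural wells, which can favour endothelial genes in this comparison. The share of all genes with a positive value was not counted. The median of the whole list was 0.45 against lymphatic and 0.42 against mural wells, beside 0.39 and 0.23 over all genes.

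To follow the receptors along the vessel tree, BEC wells were clustered without the 5 receptors and the related genes. An artery-like cluster (23 and 22 wells in the replicates) had all 14 artery markers higher, a capillary-like cluster (128 and 39 wells) 11 of 12 capillary markers and a vein-like cluster (48 and 47 wells) 10 of 11 vein markers. Another 3 clusters with 139 and 255 wells were left without a class. The classes were cut from the same wells in which they are compared. Beside the results that follow, *Rgs5* stood at 1145, 1180 and 329 CPM in artery-, capillary- and vein-like wells of replicate 1 and at 136, 89.5 and 31.9 CPM in replicate 2. The 7 lymphatic markers summed to 68.1, 68.7 and 28.7 CPM in replicate 1 and to 84.2, 288 and 99.7 CPM in replicate 2. Their part in the results was not tested.

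Along this axis *Icam2* was highest in artery-like BECs, *Cd47* in vein-like BECs among the named classes, and *Pecam1* had a fold change near 1 between artery-like and vein-like BECs. None of these differences passed the test. Between artery-like and vein-like BECs, 0 of the 5 receptors and 0.0496% of 14113 genes tested were past the threshold (3 higher and 4 lower). Between capillary-like BECs and the mean of the others it was 0 of 5 receptors and 0% of genes, with 551 genes at an unadjusted p below 0.05 and 192 genes called by DESeq2. The median log2 fold change of all genes was -0.30 and 0.11.

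*Icam2* stood at 534 and 806 CPM in artery-like wells, 390 and 242 CPM in capillary-like wells and 350 and 258 CPM in vein-like wells. On single plates it ran from 505 to 834 CPM in artery-like wells, of which a plate held 8 to 15. This was above the 208 to 396 CPM of capillary-like and the 237 to 400 CPM of vein-like wells. How many of all genes separated the classes by plate was not counted. The log2 fold change of artery-like over vein-like BECs was 1.60 ± 0.43 (SE, adjusted p = 0.603), at 0.94 in replicate 1 and 2.24 in replicate 2. It fell to 0.93 with classes from marker scores and to 0.87 with wells kept without *Pecam1*. It was positive in 14 of 15 alternatives, the exception being wells below 10 CPM of the non-BEC genes (-0.52), in which a single artery-like well remained in replicate 1. In thinned wells a read of *Icam2* was found in 18 of 23 and 15 of 20 artery-like wells and in 85.4% and 44.7% of vein-like wells.

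Among the 3 named classes *Cd47* was highest in vein-like wells, with 491 and 322 CPM in artery-like wells, 460 and 235 CPM in capillary-like wells and 541 and 748 CPM in vein-like wells. This held in each replicate, but plates overlapped, since artery-like wells on plate A of replicate 1 reached 799 CPM. The log2 fold change of artery-like over vein-like BECs was -0.54 ± 0.36 (adjusted p = 0.738). A read of *Cd47* was found in 48 of 48 and 47 of 47 vein-like wells, and after thinning in 93.8% and 87.2% of them, compared with 18 of 23 and 9 of 20 artery-like wells and 77.3% and 67.9% of capillary-like wells.

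*Mcam* stood at 631 and 348 CPM in artery-like, 422 and 280 CPM in capillary-like and 619 and 522 CPM in vein-like wells. It was lowest in capillary-like wells of both replicates by mean CPM per well, but not in the TMM-scaled sums of replicate 2, where capillary-like wells held 440 and artery-like wells 419 CPM. The log2 fold change of capillary-like over the mean of the other classes was -0.37 ± 0.32 (adjusted p = 0.996). The log2 fold change between artery-like and vein-like BECs was -0.21 ± 0.36 (adjusted p = 0.932). *Pecam1* stood at 2431 and 2641, 2838 and 1783, and 3258 and 2697 CPM in artery-, capillary- and vein-like wells, a log2 fold change between the ends of 0.01 ± 0.20 (adjusted p = 0.998), with opposite signs in the replicates (-0.23 and 0.23). This is the narrowest estimate among the 5 receptors. *Cd99l2*, at 8.54 and 23.1, 46.1 and 40.6, and 41.5 and 30.4 CPM, gave -0.64 ± 1.47 (adjusted p = 0.954), and its replicates disagreed in sign (-2.08 and 0.36).

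**Figure D4:**
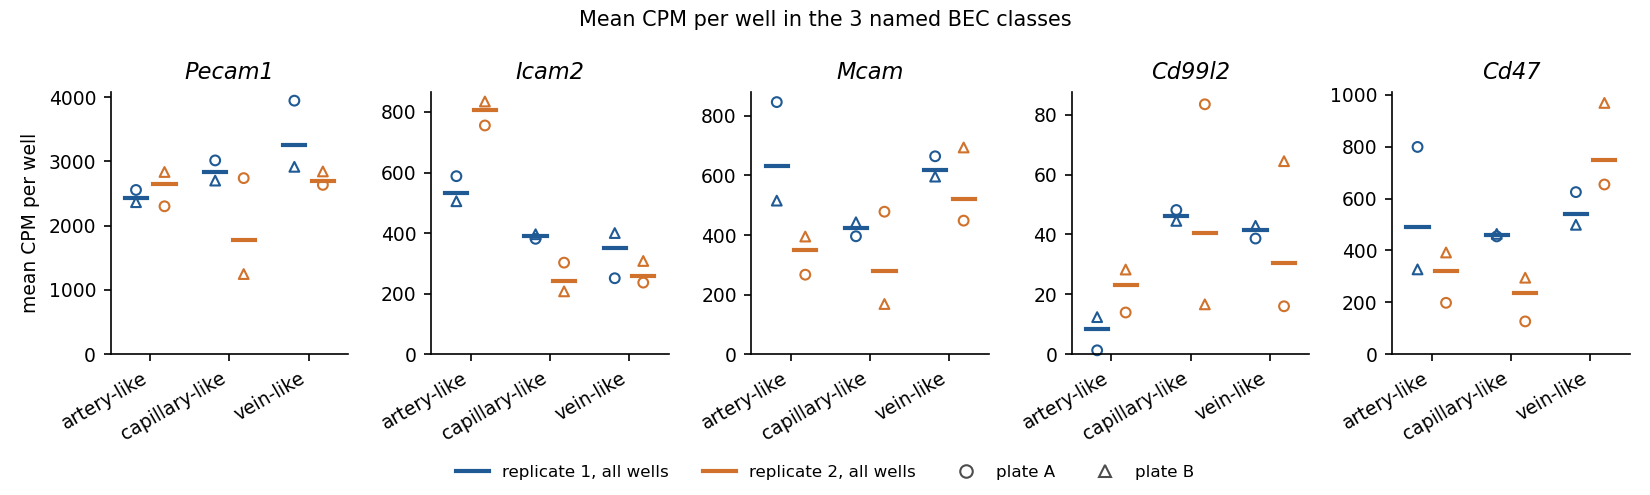
Mean CPM per well of each receptor in the BEC classes artery-like, capillary-like and vein-like, with a line for each replicate (blue 1, orange 2) and open symbols for plates A (circles) and B (triangles); each panel has its own linear axis from 0. *Icam2* in artery-like wells (534 and 806) lies above both other classes on every plate, whereas the plates of the other 4 receptors overlap between classes. Plates of a replicate are not separate samples, and the difference of *Icam2* did not pass the test.

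In BEC wells without a class *Pecam1* stood at 3206 and 1730 CPM, beside 2892 and 2355 CPM in the named classes together. The cluster led by *Mmrn1*, a lymphatic gene, held 41 and 104 wells with a median of 43791 reads. The keratinocyte genes *Krt5* and *Krt14* were also among its leading genes, and 8 mural, 6 lymphatic, 6 fibroblast, 3 leukocyte, 3 Schwann cell, 3 platelet and red cell and 2 keratinocyte markers were higher in it. It had the lowest *Pecam1* (2242 and 793 CPM) of the 6 clusters in each replicate. *Icam2* and *Mcam* were also lowest there in replicate 2, at 61.3 and 80.4 CPM, but not in replicate 1, at 280 and 490 CPM. *Cd47* was 396 and 339 CPM in it. The part of depth and of RNA of these other cell types in these values was not tested. The cluster led by *Snai1*, with 72 and 67 wells, had the highest *Pecam1*, at 3659 and 3167 CPM. Its *Cd47*, at 613 and 697 CPM, and that of the cluster led by *Flnc*, at 658 and 588 CPM, lay above the vein-like wells in replicate 1 and below them in replicate 2. In BEC wells below 100 CPM of *Mmrn1* the levels of the 5 receptors were 2534, 294, 407, 35.2 and 526 CPM in the order named at the start.

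Of the related genes, 39 of 45 were tested between classes and 0 passed in either comparison. At an unadjusted p below 0.05 there were 9 and 5 of them, beside 8.23% (1161 genes) and 3.90% of all genes tested. DESeq2's test called *Thbs1* and *Sirpa* between artery-like and vein-like BECs, where it called 5.84% of all genes, and *Icam1* and *Ezr* for capillary-like BECs, where it called 1.36%. Without the low-count filter edgeR called *Cav1* (1.12, adjusted p = 1.75e-05), *Icam1* (-2.79, 0.0016) and *Sirpa* (-10.32, 0.0446) between artery-like and vein-like BECs, beside 0.448% of all genes, and *Icam1* (-2.74, 0.0037) for capillary-like BECs, beside 0.0822%. *Icam1*, a docking receptor, had log2 fold changes of -2.65 (adjusted p = 0.577) and -2.79 (adjusted p = 0.996) in the edgeR fit with the filter. The median log2 fold change of the list between artery-like and vein-like BECs was 0.33. Among the lateral border receptors *Cdh5*, *F11r* and *Jam2* are the first on the list, and of *Cdh5* the artery-like wells held 592 and 735 CPM and the vein-like wells 335 and 455 CPM.

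**Figure D5:**
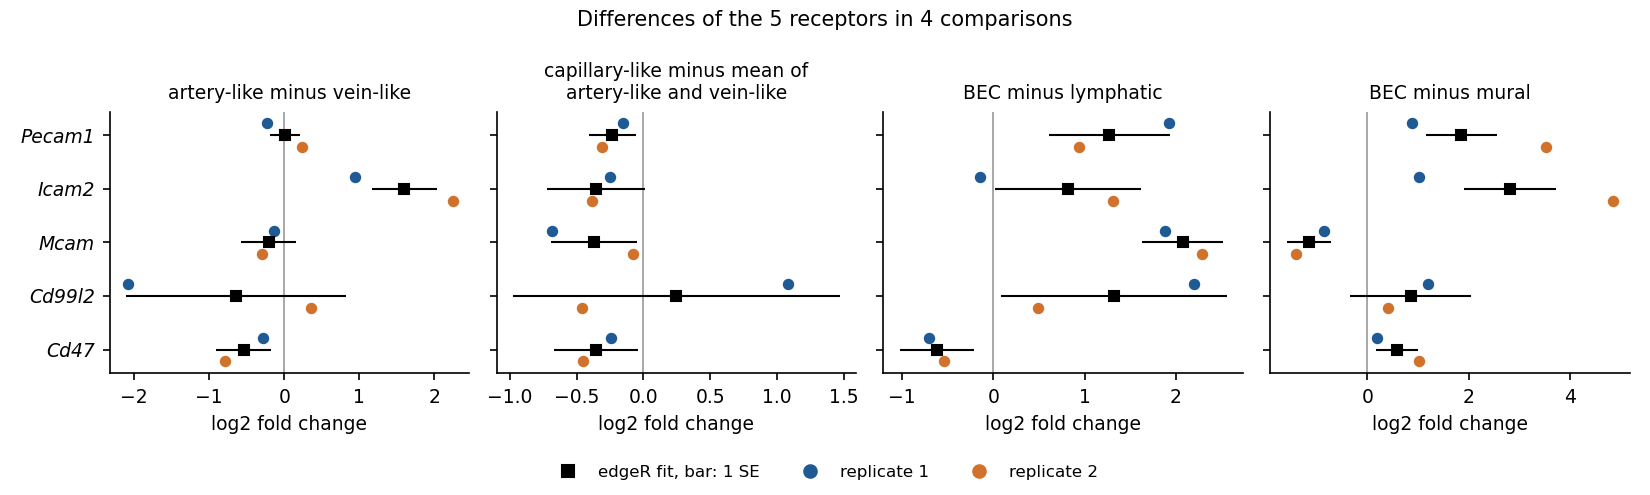
Log2 fold change of each receptor in the 4 comparisons named above the panels, from the edgeR fit (black squares, bars 1 SE) and in replicates 1 (blue) and 2 (orange) alone. The replicates of *Mcam* and *Cd47* have the same sign in all 4 panels, for *Mcam* with 1.89 and 2.29 for BEC minus lymphatic, whereas those of *Cd99l2* fall on opposite sides of 0 in the first 2 panels.

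Genes with the most similar pattern were sought by Pearson's r of log2(CPM + 1) over 10 sums (artery-, capillary- and vein-like, lymphatic and mural wells in 2 replicates) among 11651 other protein-coding genes. The sums share replicates and depth, so r is only a description. *Map3k11*, *B3gnt3* and *Adgrl4* (an endothelial adhesion receptor) were nearest to *Pecam1*, at 0.972, 0.971 and 0.969. For *Icam2* they were *Ptprg*, *Sox18* (an endothelial transcription factor) and *Adipor2*, at 0.983, 0.982 and 0.965, and for *Mcam* *Nedd4*, *Mfge8* and *Uckl1*, at 0.966, 0.939 and 0.934. *Cd99l2* was nearest to *Slc10a1*, *Adam17* and *Mef2d* (0.914, 0.913 and 0.901) and *Cd47* to *Kmt5a*, *Hs3st1* and *Hjurp* (0.927, 0.916 and 0.914). Among the receptors themselves *Pecam1* and *Icam2* were most alike (0.865) and *Mcam* and *Cd47* least (-0.629).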

How the data were processed

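The 5 receptors, the list of related genes, the markers and the tests were chosen with earlier results of these data known. Per the submitters' processing notes and the methods, TopHat2 2.1.1 was the authors' aligner for the 50-bp single reads (mm10), duplicates were taken out through SAMtools 0.1.18, and Subread 1.4.6-p5 did the counting. What was deposited is a matrix of unnormalized counts, genes by wells, and the annotation release is not given in the sources used here. Because duplicates were removed and there are no molecular identifiers, counts of abundant genes such as *Pecam1* can be compressed. Totals on genes were 74739095 and 63091443 reads (replicate 1, plates A and B) and 31864976 and 35546726 (replicate 2). The 92 spike-ins were left out. GENCODE vM21 gave symbols to 46005 of 46517 identifiers, gene models and exon lengths, and *Cd99* was not analysed here.

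Variable genes and size factors were computed with scran 1.30.0. BEC wells were clustered with leidenalg 0.10.2 on 1000 variable genes scaled within replicate, 15 principal components and 15 neighbours, at a resolution of 0.8, the lowest giving all 3 classes in both replicates. A cluster of at least 10 wells was named artery-, capillary- or vein-like if more markers of that class than of any other list were at least 1.25 times higher, if these were at least 3 and the majority of the markers of the class, and if no other list had more genes among the top 10 of the cluster by fold. A cluster of low depth, relative to its replicates, with no class marker in its top 10 also stayed unnamed. The majority rule was set after marker counts of clusters were seen. Doublets were not called, apart from the upper limit on genes. Counts of all wells of a class or kind were added up within each replicate, and genes with 10 counts in 2 sums entered the quasi-likelihood test of edgeR 4.0.16 after TMM scaling, with the replicate as a block and Benjamini-Hochberg adjustment. The block follows the design, in which classes of a replicate share its plates; deviations of same-replicate sums correlated at 0.0199 to 0.122. The code was tested on simulated data, where it recovered nearly all large changes at a low dispersion but almost none at the dispersion estimated from these data, so a missing call is no sign of an absent difference. Related genes are named when past the threshold, otherwise by list order or, for *Thbs1*, *Sirpa*, *Icam1*, *Ezr*, *Cav1* and the levels of other list genes, after their values were seen. Intervals are exact Clopper-Pearson 95% intervals, and a count of 0 was given an upper limit of 3 wells. Alternatives used DESeq2 1.42.0, limma 3.58.1 (pseudocount 1), other filters and single plates or replicates. R 4.3.3 and Python 3.11.15 were used.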

Additional observations from a re-analysis of the deposited data

How the results depend on the processing

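No receptor passed the threshold in the main tests, and 7 of 259 alternative tests of a receptor did. Without a filter on low counts these were *Pecam1* (1.41, adjusted p = 0.0023) and *Mcam* (2.25, 0.00127) against lymphatic wells and *Pecam1* (1.98, 3.02e-06) and *Icam2* (2.91, 0.0081) against mural wells. The others, all against mural wells, were *Pecam1* on plate B (1.82, 0.0093) and, with mural wells chosen by low *Pecam1*, *Icam2* (3.11, 0.0164) and *Mcam* (-1.50, 0.0471), where *Pecam1* itself was not tested. In the same fits 285 of 29411 genes (lymphatic, no filter), 290 of 29411 (mural, no filter), 73 of 15549 (mural, plate B) and 366 of 17554 (mural wells by *Pecam1*) were called. The fits are edgeR's with Benjamini-Hochberg adjustment, the values log2 fold changes. *Pecam1* helped to choose BEC wells, and mural wells were chosen for low *Cdh5* and *Kdr*, so the calls of *Pecam1* are not independent of the choice of wells. A single replicate gives a value with no test. Wells below 100 CPM of *Mmrn1* or *Rgs5* and the named classes alone were added after the data were seen.

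Counts of genes called, of 14113 (classes) and 17753 (kinds) tested in the main fits, depended strongly on the setting. Without the replicate block they were 0 (artery-like against vein-like), 3 (lymphatic) and 0 (mural), in place of 7, 40 and 48. The replicate block changed no call of a receptor. For artery-like against vein-like BECs the count was 0 by marker scores, by limma and with wells kept without *Pecam1*, 2 at the next higher resolution and on plate B, 3 with non-BEC genes below 10 CPM, 34 on plate A, 109 without a filter and 824 by DESeq2. For capillary-like BECs it was 14 on plate A, 20 without a filter and 192 by DESeq2, in place of 0. Against lymphatic wells it was 0 by limma, 2 on plate A, 7 below 10 CPM, 8 below 100 CPM of *Rgs5*, 13 in named classes, 111 on plate B, 111 with lymphatic wells that had both markers, 285 without a filter and 798 by DESeq2. Against mural wells it was 0 by limma, in named classes and on plate A, 25 below 10 CPM, 27 below 100 CPM of *Mmrn1* and 27 of *Rgs5*, 73 on plate B, 290 without a filter, 366 with mural wells chosen by *Pecam1* and 770 by DESeq2. The cause was not tested.

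The sign of a receptor's fold change differed from the main one in 31 of 299 alternatives. Between artery-like and vein-like BECs *Pecam1* was -0.14 without a filter, -0.0048 without the replicate block, -0.23 by limma, -0.10 on plate A, -0.40 below 10 CPM, -0.22 with wells kept without *Pecam1*, -0.017 at the next resolution, -0.0039 below 100 CPM of *Mmrn1*, -0.021 below 100 CPM of *Rgs5* and -0.23 to 0.23 in single replicates. Below 10 CPM, where 18 and 229 BEC wells were left, *Icam2* was -0.52, *Mcam* 0.91 and *Cd47* 0.32. *Mcam* was 0.11 by marker scores and 0.035 at the next resolution, and *Cd99l2* 0.42 without *Pecam1*, 0.10 by scores and -2.08 to 0.36 in single replicates. For capillary-like BECs *Pecam1* was 0.13 on plate A and 0.18 below 10 CPM, *Icam2* 0.34 below 10 CPM, 0.26 without *Pecam1* and 0.10 by scores, *Mcam* 0.36 on plate A, 0.18 without *Pecam1* and 0.052 at the next resolution, *Cd99l2* -0.19 on plate B, -0.53 without *Pecam1* and -0.46 to 1.08 in single replicates, and *Cd47* 0.13 below 10 CPM. Against lymphatic wells *Icam2* was -0.14 to 1.31 in single replicates.

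In 17 of 105 alternatives a level or share moved by over 1 SD. The SD is that of 2 replicates, so a replicate taken alone always lies within it and could not count as moved. The count also depends on its size, which was small for the levels of *Cd99l2* and *Cd47*. *Icam2* at 380 CPM in named classes did not count, beside 286 ± 96.6 CPM in all BEC wells. *Cd99l2* was 47.6 CPM below 10 CPM of non-BEC genes, 27.0 on plate A, 40.2 on plate B, 29.6 below 100 CPM of *Rgs5*, 36.6 in named classes, 36.6 by scran size factors and 42.9 in summed counts. *Cd47* was 655, 546, 475, 567, 479, 631 and 579 CPM in the same order and 526 CPM below 100 CPM of *Mmrn1*. The share of wells with *Pecam1* was 99.7% when wells were kept without it and 98.2% after thinning.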
